A study of Mus musculus with 24 samples.

Results

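Haemoglobin is the oxygen carrier of the red blood cell, and the adult mouse makes it from 2 alpha-globin genes, Hba-a1 and Hba-a2, and 2 beta-globin genes, Hbb-bs and Hbb-bt. Their transcripts were followed with that of Alas2, the red-cell form of the enzyme that makes 5-aminolevulinate in the first step of haem synthesis, in brain and liver RNA of mice that lack single phenylalanine tRNA genes. These 5 genes, of 55469 in each table, were chosen by their symbols as a sign of blood in the tissue. Earlier results of the same tables were known, so their differences between genotypes are given as a description. They were part of the tests over all genes, but nothing is read from their calls there. Hba-a1 (ENSMUSG00000069919.7) lies on chromosome 11 from 32283672 to 32284486 and Hba-a2 (ENSMUSG00000069917.7) from 32296492 to 32297310, both on the plus strand of GRCm38.p6. Hbb-bs (ENSMUSG00000052305.6) lies on chromosome 7 from 103826523 to 103827928 and Hbb-bt (ENSMUSG00000073940.3) from 103812524 to 103813923, both on the minus strand. Alas2 (ENSMUSG00000025270.13) lies on chromosome X from 150547417 to 150570622 on the plus strand. All of them are protein-coding, and all passed the filter on low values in both tissues.

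The mice were male, on a C57BL/6N background 10 weeks old and matched in age with WT littermates. The controls were wild type (WT). The first knockout was labelled tRNA-Phe-GAA-1-1-/- and is written here as tRNA-Phe-1-1-/-. The second was labelled tRNA-Phe-GAA-2-1-/- (tRNA-Phe-2-1-/-). The last was labelled tRNA-Phe-GAA-3-1-/- (tRNA-Phe-3-1-/-). Each tRNA-Phe gene encodes a copy of the tRNA that delivers phenylalanine to the ribosome, and each knockout line was made by CRISPR-Cas9 and was homozygous for the deletion of that gene. Brain and liver were each represented by 3 samples per genotype (replicates A, B and C), 24 in all, and RNA was taken from small pieces of the organ. Whether blood was flushed from these pieces is not given in the sources used here.

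Circulating red cells of mammals have no nucleus, but the youngest of them, the reticulocytes, still carry globin RNA made earlier in the bone marrow. Blood left in the vessels of an organ therefore brings globin transcripts into its RNA. Erythroblasts, their nucleated precursors, also express membrane proteins such as band 3 (Slc4a1) and transcription factors such as Gata1 and Klf1, which bind GATA and CACCC elements. The liver makes red cells before birth, and in the adult the marrow and the spleen do so.

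The stretches upstream of these genes show the elements that they share. The 250 bases before the annotated start of transcription are given (RefSeq, GRCm38.p6, 5′ to 3′ on the strand of the gene), with capitals for 4 short motifs on either strand: GATAA (the GATA core), CACCC (the CACCC box), CCAAT (the CCAAT box) and TATAA (the TATA box). Hba-a1 stands for both alpha genes, because the window of Hba-a2 (chr11:32296242-32296491) was the same sequence moved by 3 bases, with 247 of 247 overlapping bases identical. The windows are those of Hba-a1 (chr11:32283422-32283671, plus strand), Hbb-bs (chr7:103827929-103828178, minus strand), Hbb-bt (chr7:103813924-103814173, minus strand) and Alas2 (chrX:150547167-150547416, plus strand).
Hba-a1: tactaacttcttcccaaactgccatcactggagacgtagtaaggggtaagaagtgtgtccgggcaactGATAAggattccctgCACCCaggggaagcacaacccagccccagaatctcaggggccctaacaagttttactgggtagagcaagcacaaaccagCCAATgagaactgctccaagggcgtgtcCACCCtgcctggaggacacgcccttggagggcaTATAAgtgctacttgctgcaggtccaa
Hbb-bs: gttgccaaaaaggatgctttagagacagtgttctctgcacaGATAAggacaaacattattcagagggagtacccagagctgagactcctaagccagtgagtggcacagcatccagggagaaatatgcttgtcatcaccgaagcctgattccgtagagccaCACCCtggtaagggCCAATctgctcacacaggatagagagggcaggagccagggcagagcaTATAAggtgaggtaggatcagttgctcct
Hbb-bt: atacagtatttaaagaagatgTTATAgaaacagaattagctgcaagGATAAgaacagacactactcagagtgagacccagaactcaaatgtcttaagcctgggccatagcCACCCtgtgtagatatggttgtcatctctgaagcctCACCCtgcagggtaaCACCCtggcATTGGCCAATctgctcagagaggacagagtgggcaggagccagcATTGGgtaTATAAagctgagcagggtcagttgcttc
Alas2: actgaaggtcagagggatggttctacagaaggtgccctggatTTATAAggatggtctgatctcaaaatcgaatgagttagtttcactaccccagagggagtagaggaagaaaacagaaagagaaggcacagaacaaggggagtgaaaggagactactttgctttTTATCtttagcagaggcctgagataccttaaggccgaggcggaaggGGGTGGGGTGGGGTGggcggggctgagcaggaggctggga
Each of the 4 globin windows held all 4 motifs, as did 0.968% of the 32851 windows of the same length in the promoter table. Taken singly, GATAA was found in 22.6% of those windows, CACCC in 52.0%, CCAAT in 33.8% and TATAA in 22.8%. The TATAA nearest to the start of transcription began 27 bases before it in Hba-a1, 30 in Hba-a2, 29 in Hbb-bs and 28 in Hbb-bt. The CCAAT nearest to the TATAA on the strand of the gene began 88, 91, 76 and 75 bases before the start, in the same order of genes. In Alas2 the window held no CCAAT, its TATAA began 207 bases before the start, and its GATA core (86 bases before the start) and 3 CACCC boxes (40 to 26 bases before the start, as GGGTG runs that lie end to end) lay on the opposite strand. The alpha and beta windows shared 32.1% of bases between Hba-a1 and Hbb-bs at their best ungapped overlap, and Hbb-bs and Hbb-bt shared 51.0%. Over a coding length of 429 bases Hba-a1 and Hba-a2 differed at 1 base, and over 444 bases Hbb-bs and Hbb-bt differed at 1 base. The division of reads between the copies of a pair is therefore uncertain, whereas the sum of a pair is not affected by it.

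The depth recovered from the tables was 30.4 M to 46.2 M reads (brain) and 32.3 M to 51.6 M reads (liver). Each tissue was normalised on its own, so a level in the brain and one in the liver are set side by side and not tested. Summed over 7 genes each, brain markers reached 213999 to 318618 normalised read counts in brain samples and 3080 to 10171 in liver samples. Liver markers reached 2161653 to 3394433 in liver samples and 641 to 1980 in brain samples.

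When counts were divided by transcript length, the WT means of the globin genes had the same order in both tissues. In WT brain, Hbb-bs stood at 14486 ± 4941 normalised counts per kilobase (SD, n = 3). It was followed by Hba-a2 at 7624 ± 3023, Hba-a1 at 5333 ± 1651 and Hbb-bt at 1945 ± 714. Alas2 was lowest, at 139 ± 54.6 per kilobase. The SDs of Hba-a2 and Hba-a1 between the samples overlapped. Within a library, Hba-a1 made up 42.6% to 46.8% of the alpha counts over the 12 brains. That share depends on how reads were divided between the near-identical copies, and so does the split between Hbb-bs and Hbb-bt. In WT liver, Hbb-bs stood at 13262 ± 2522 normalised counts per kilobase, Hba-a2 at 6612 ± 1273 and Hba-a1 at 5159.8 ± 960.1. The SDs of the alpha genes overlapped in the liver too. There Alas2 (1959 ± 111) and Hbb-bt (1661 ± 427) could not be ordered, since their spreads overlapped. The 4 globin genes together took 0.0559% ± 0.0194 of all normalised counts in WT brain and 0.0426% ± 0.00816 in WT liver (SD, n = 3).

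In the brain, all 5 transcripts were lower in tRNA-Phe-1-1-/- mice than in WT mice. Hbb-bs, the beta-globin transcript with the higher count, measured 7427, 8038 and 13391 in WT replicates A, B and C (normalised read counts). It was counted 4637, 4511 and 3664 times in tRNA-Phe-1-1-/- brains. In tRNA-Phe-2-1-/- brains it was 5961, 7292 and 3160, and in tRNA-Phe-3-1-/- brains 9296, 7785 and 17964. The highest sample was tRNA-Phe-3-1-/- replicate C and the next WT replicate C, and the lowest was tRNA-Phe-2-1-/- replicate C, so the extremes did not follow the genotype alone. The 3 tRNA-Phe-1-1-/- samples all lay under the lowest WT sample, and the difference was -1.13 ± 0.36 on the log2 scale (SE), or 2.18-fold. In bulk tissue, fewer red cells and less RNA per cell cannot be told apart.

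The alpha genes had the same order of groups. Hba-a1 measured 3058, 3422 and 5327 in WT brains and 1967, 1786 and 1563 in tRNA-Phe-1-1-/- brains. It measured 2546, 3313 and 1275 in tRNA-Phe-2-1-/- brains and 3827, 3252 and 7071 in tRNA-Phe-3-1-/- brains. Again the third replicates of WT and tRNA-Phe-3-1-/- were high and that of tRNA-Phe-2-1-/- low. Hba-a2 measured 3718, 3890 and 7189 in WT, 2333, 2149 and 1808 in tRNA-Phe-1-1-/-, 3005, 3801 and 1649 in tRNA-Phe-2-1-/- and 4531, 4275 and 9056 in tRNA-Phe-3-1-/- brains. The log2 differences of tRNA-Phe-1-1-/- from WT were -1.11 ± 0.36 for Hba-a1 and -1.17 ± 0.36 for Hba-a2, with no overlap of the groups.

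The beta gene with the lower count and Alas2 were scarcer and had that order too. Hbb-bt measured 980, 1191 and 1937 in WT, 564, 631 and 436 in tRNA-Phe-1-1-/-, 734, 970 and 440 in tRNA-Phe-2-1-/- and 1109, 1039 and 2348 in tRNA-Phe-3-1-/- brains. Its difference between tRNA-Phe-1-1-/- and WT was -1.29 ± 0.37 (log2, SE). Alas2 measured 210, 227 and 411 in WT, 129, 124 and 117 in tRNA-Phe-1-1-/-, 182, 240 and 85.7 in tRNA-Phe-2-1-/- and 234, 281 and 577 in tRNA-Phe-3-1-/- brains. Its difference was -1.12 ± 0.41, and here too the tRNA-Phe-1-1-/- samples lay below all WT samples. The spread was narrowest in the tRNA-Phe-1-1-/- brains, where Alas2 had an SD of 6.12 against 111 in WT brains.

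**Figure D1:**
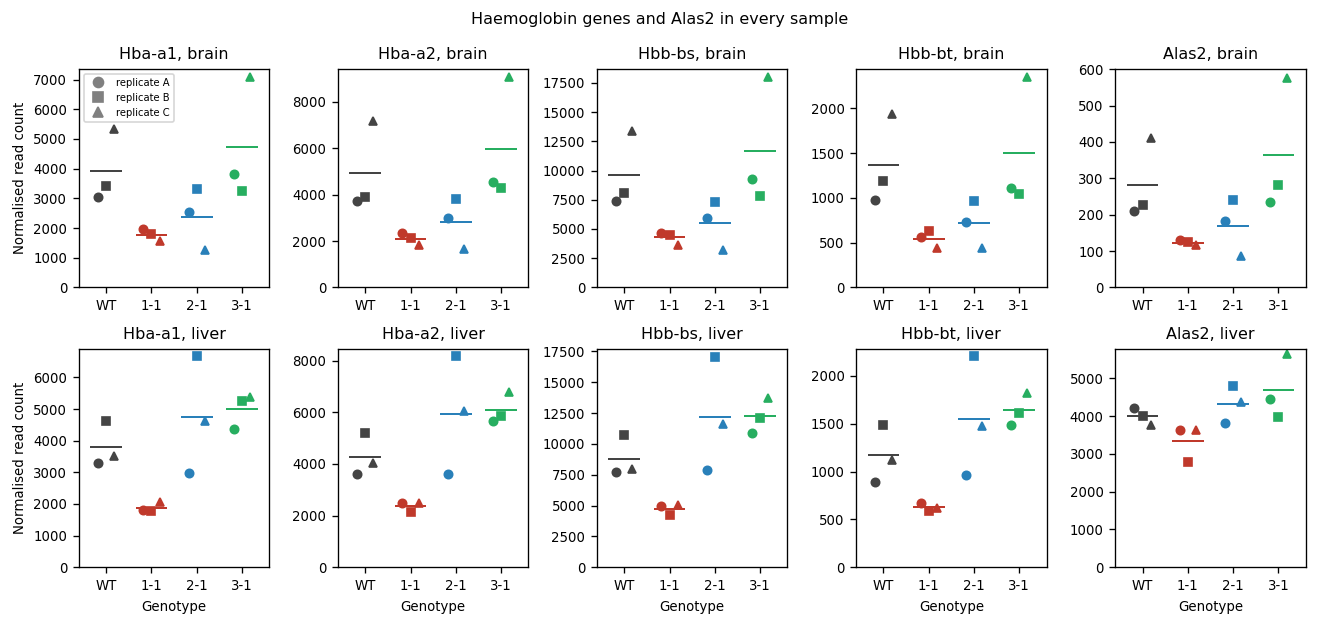
Normalised read counts (vertical axes, from 0) of the 5 genes in each sample of the brain (top) and the liver (bottom), by genotype (horizontal axes, where 1-1, 2-1 and 3-1 are the tRNA-Phe knockouts). Symbols are replicates and bars are means of 3 samples. The tRNA-Phe-1-1-/- samples lie under all WT samples in each of the 10 panels, and replicate C of tRNA-Phe-3-1-/- is the highest brain sample throughout.

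No overlap between tRNA-Phe-1-1-/- and WT brains, in the lower direction, was seen for 5 of 5 genes, against 12.4% of the 19228 genes tested. The limma test over all genes called 1.05% of genes at an adjusted p under 0.05 in this comparison, and 0 of these 5 by limma and by edgeR. DESeq2 on the recovered reads called 4 of them. Because the genes were chosen with these results known, nothing is read from these counts. When WT replicate C was left out, the median of the 5 log2 differences moved from -1.13 to -0.87.

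In tRNA-Phe-2-1-/- brains the 5 log2 differences from WT were between -0.95 and -0.79, and the groups did not overlap for 2 of them, Hbb-bs and Hbb-bt (5.43% of all genes in the lower direction). Without tRNA-Phe-2-1-/- replicate C, the lowest library, the median of the 5 moved from -0.82 to -0.48. In tRNA-Phe-3-1-/- brains the differences were between 0.09 and 0.31, which is under 1 SE for each gene. The direction of their median, 0.23, rested on replicate C, without which it was -0.11. The test over all genes called 0% of genes in both comparisons (0 genes by limma and by edgeR, with 1071 and 2373 genes at an unadjusted p under 0.05, and 19 and 372 by DESeq2).

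In the liver, the 4 globin transcripts were again lower in tRNA-Phe-1-1-/- mice, and Alas2 was only slightly lower. Hbb-bs measured 7737, 10736 and 7945 in WT livers and 4963, 4261 and 5052 in tRNA-Phe-1-1-/- livers. It measured 7847, 17082 and 11640 in tRNA-Phe-2-1-/- livers and 10896, 12106 and 13688 in tRNA-Phe-3-1-/- livers. The tRNA-Phe-1-1-/- samples were below all other 9 livers, and the highest was tRNA-Phe-2-1-/- replicate B. The log2 difference of tRNA-Phe-1-1-/- from WT was -0.88 ± 0.23 (SE), or 1.83-fold.

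Hba-a1 measured 3282, 4614 and 3528 in WT, 1795, 1775 and 2067 in tRNA-Phe-1-1-/-, 2992, 6664 and 4621 in tRNA-Phe-2-1-/- and 4372, 5268 and 5389 in tRNA-Phe-3-1-/- livers. Hba-a2 measured 3603, 5196 and 4035 in WT, 2491, 2157 and 2479 in tRNA-Phe-1-1-/-, 3614, 8166 and 6048 in tRNA-Phe-2-1-/- and 5649, 5854 and 6786 in tRNA-Phe-3-1-/- livers. The alpha genes thus had the same low group and the same highest sample as Hbb-bs. Their log2 differences between tRNA-Phe-1-1-/- and WT were -1.01 ± 0.23 for Hba-a1 and -0.83 ± 0.24 for Hba-a2. Hbb-bt measured 894, 1490 and 1123 in WT, 673, 589 and 618 in tRNA-Phe-1-1-/-, 968, 2202 and 1478 in tRNA-Phe-2-1-/- and 1481, 1616 and 1815 in tRNA-Phe-3-1-/- livers, with a difference of -0.87 ± 0.25. Each globin gene was therefore lower in the 3 tRNA-Phe-1-1-/- livers than in any other liver.

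In the liver, Alas2 had a smaller difference from WT than the globins. It measured 4216, 3995 and 3762 in WT, 3624, 2783 and 3623 in tRNA-Phe-1-1-/-, 3824, 4799 and 4363 in tRNA-Phe-2-1-/- and 4457, 3982 and 5640 in tRNA-Phe-3-1-/- livers. The tRNA-Phe-1-1-/- samples were again the lowest, but by little: the log2 difference from WT was -0.26 ± 0.14. Over the 12 livers Alas2 varied 2.03-fold from the lowest to the highest sample, compared with 3.74-fold to 4.01-fold for the globin genes. In the brain its range was 6.73-fold, compared with 5.39-fold to 5.69-fold for the globin genes.

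The groups did not overlap in the lower direction for 5 of 5 genes between tRNA-Phe-1-1-/- and WT livers, where 17.6% of all 15856 genes tested did the same. The limma test called 17.3% of all genes in this comparison and 9.08% as lower, among them the 4 globin genes and not Alas2, from which nothing is read for the reason given above. This count of 4 was not stable: it was 0 without WT replicate B, 1 without WT replicate C or without tRNA-Phe-1-1-/- replicate A or B, and 2 without tRNA-Phe-1-1-/- replicate C. The sizes moved less, and the median of the 5 log2 differences, -0.87, ranged from -0.96 to -0.69 when single samples were left out.

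In tRNA-Phe-2-1-/- livers the log2 differences from WT were between 0.11 and 0.41 for the 5 genes, and none of the groups was separate. Their median was 0.36, and it was 0.06 without tRNA-Phe-2-1-/- replicate B and 0.66 without replicate A. In tRNA-Phe-3-1-/- livers the differences were between 0.22 and 0.52, with all samples above WT for Hba-a2 and Hbb-bs (2 of 5 genes, against 9.85% of all genes in the higher direction). Limma called 0.132% of all genes in tRNA-Phe-2-1-/- livers and 0.883% in tRNA-Phe-3-1-/- livers, and 0 of these 5 in both.

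**Figure D2:**
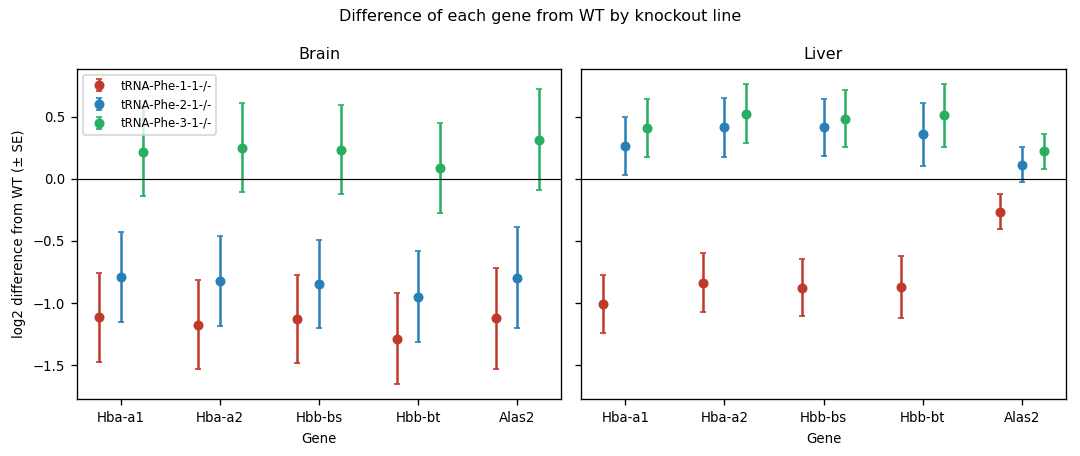
Log2 difference of each gene from WT (vertical axis, ± SE from the limma fit) in the brain and the liver for the 3 knockout lines, from 3 samples per group. The tRNA-Phe-1-1-/- values lie between -1.29 and -1.11 in the brain, and in the liver between -1.01 and -0.83 for the globins with Alas2 at -0.26.

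The knockout lines were also compared with each other. Against tRNA-Phe-3-1-/- mice, tRNA-Phe-1-1-/- brains were lower by -1.44 to -1.33 on the log2 scale and the groups were separate for 5 of 5 genes (11.1% of all genes). Against tRNA-Phe-2-1-/- brains the differences were -0.35 to -0.28, and the groups overlapped for each gene (9.66% of all genes were separate in this direction). Of all brain genes, limma called 0.697% and 0.135% as lower in these comparisons, and 0 of the 5 in both. In the liver, tRNA-Phe-1-1-/- samples were separate from those of tRNA-Phe-2-1-/- for 5 of 5 genes (19.6% of all genes), with differences of -1.29 to -1.23 for the globins and -0.38 for Alas2. They were separate from those of tRNA-Phe-3-1-/- for 5 of 5 genes too (16.3% of all genes), with -1.41 to -1.36 for the globins and -0.48 for Alas2. Limma called 4 of 5 and 5 of 5 as lower there, against 8.53% and 8.63% of all genes. Nothing is read from these counts of calls and of separate groups, because the 5 genes were chosen with earlier results known. These comparisons share the tRNA-Phe-1-1-/- samples with the one against WT and are not independent of it. Samples of tRNA-Phe-2-1-/- minus those of tRNA-Phe-3-1-/- gave differences of -1.11 to -1.01 (brain) and -0.15 to -0.07 (liver).

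The balance between the globin chains, which compares genes within a library, varied little. The ratio of alpha to beta counts ranged over the 12 brains from 0.765 to 0.861 and over the 12 livers from 0.749 to 0.834. In WT mice it was 0.805 ± 0.0121 (brain) and 0.811 ± 0.0198 (liver, SD, n = 3), and in tRNA-Phe-1-1-/- mice 0.805 ± 0.0343 and 0.791 ± 0.0268. Of the beta counts, Hbb-bs made up 87.1% to 89.4% (brain) and 87.6% to 89.6% (liver). Of the alpha counts, Hba-a1 made up 42.6% to 46.8% (brain) and 41.9% to 47.7% (liver). Its share was 47.1% ± 0.514 in WT livers, above all samples of tRNA-Phe-1-1-/- (44.2% ± 1.98) and of tRNA-Phe-2-1-/- livers (44.5% ± 1.06), although this share depends on how reads were divided between near-identical copies.

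Alas2 was also set against the globins of the same library. Per 100 globin counts, there were 1.25 to 1.72 Alas2 counts in the 12 brains and 14.1 to 36.5 in the 12 livers. Whether the liver counts of Alas2 came from blood, from cells of the organ or from the assignment of reads was not tested, so they are not read as a measure of blood. This ratio lies within a library, but the tissues were normalised and bias-corrected apart, and it was not tested between them. In the brain it was 1.41 ± 0.0556 in WT and 1.43 ± 0.119 in tRNA-Phe-1-1-/- mice. In the liver it was 22.6 ± 4.52 in WT and 34.6 ± 2.54 in tRNA-Phe-1-1-/- mice, with each of the 3 knockout samples (36.5, 31.7 and 35.5) above each WT sample (27.2, 18.1 and 22.6). The ratio was 19.1 ± 5.40 in tRNA-Phe-2-1-/- and 18.8 ± 2.38 in tRNA-Phe-3-1-/- livers. For 4 ratios, 3 lines and both tissues, 24 exact two-sided permutation tests against WT were made. With 3 samples against 3 the smallest p they can give is 0.1, which 3 of them reached (adjusted p = 0.72), so no ratio could pass the threshold. These 3 were the Hba-a1 share in tRNA-Phe-1-1-/- and tRNA-Phe-2-1-/- livers and Alas2 per globin in tRNA-Phe-1-1-/- livers.

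**Figure D3:**
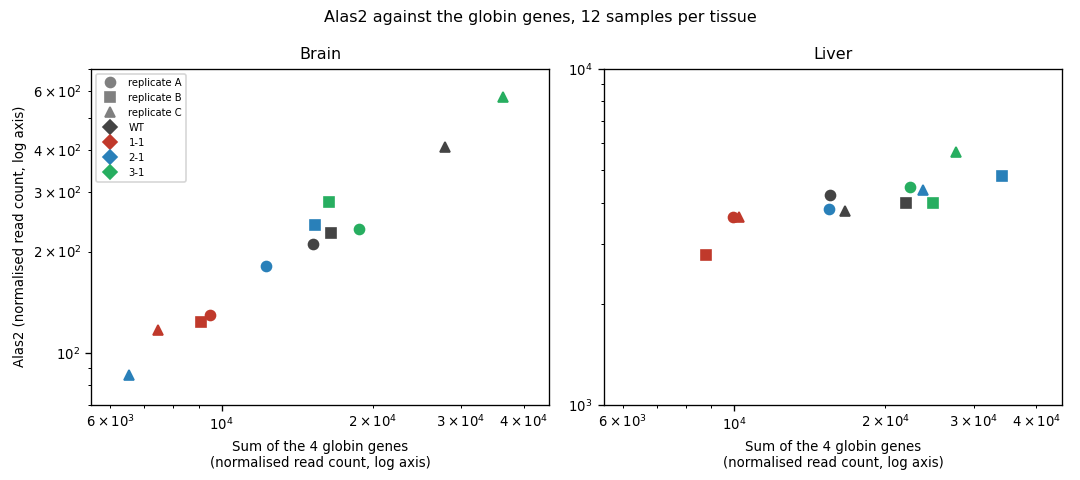
Alas2 (vertical log axis) against the sum of the 4 globin genes (horizontal log axis), both in normalised read counts, in the 12 samples of the brain (left) and of the liver (right). Colours are genotypes and symbols are replicates. Brain samples follow a line from 85.7 to 577 Alas2 counts, while liver samples stay between 2783 and 5640 over a similar range of globin counts.

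Over the 12 samples of a tissue the globin genes varied together. Pearson's r between any pair of them on the log2 scale was 0.98 to 1.00 in both tissues, and 0.95 to 0.99 when the genotype means were taken off first. Alas2 followed them in the brain, with r of 0.97 to 0.99, and 0.95 to 0.98 about the genotype means. In the liver its r with the globin genes was 0.80 to 0.84, and 0.46 to 0.60 about the genotype means. These points share libraries and size factors, and the values are a description.

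Transcripts of the erythroblast were then examined with 20 further erythroid genes. Few of them were present at a useful level: their mean was under 10 normalised counts for 12 of 20 (brain) and 10 of 20 (liver), and Cldn13, Kel and Trim58 were at 0 in all 12 livers. Gata1, an erythroid transcription factor, had a mean of 1.06 (brain) and 0.155 (liver). Klf1, the CACCC-binding factor, had 4.99 in the brain but 66.1 in the liver. Gata1 was thus low on average in both tissues, but it was at 6.77 in the brain of WT replicate C. It was at 2.16 or less in the other brains. Klf1 was highest in that library too, at 12.4. The embryonic globins Hbb-bh1 and Hba-x were at 0 in all 24 samples, and Hbb-y reached 2.96 normalised counts at most in the brain and was at 0 in the 12 livers.

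In the brain no gene of this list passed the test in any line (0 of 8 tested in each comparison by limma, by edgeR and by DESeq2). Of these 8 genes, 0 had an unadjusted p under 0.05 in tRNA-Phe-1-1-/- brains, 2 in tRNA-Phe-2-1-/- and 0 in tRNA-Phe-3-1-/- brains. Their median log2 difference from WT was -0.54 in tRNA-Phe-1-1-/-, -0.56 in tRNA-Phe-2-1-/- and -0.06 in tRNA-Phe-3-1-/- brains, where the median of all genes was within 0.01 of 0. The 3 most abundant, Sptb (mean 6479), Tspan33 (624) and Epor (136), are also transcribed outside red cells. Sptb, which encodes beta-spectrin, differed by 0.15 ± 0.13 in tRNA-Phe-1-1-/- brains, Tspan33 by -0.21 ± 0.23 and Epor, the erythropoietin receptor, by -0.28 ± 0.29 (log2, SE).

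Single brain libraries held more erythroblast transcripts than the rest, in another order than the globins. The libraries and genes of this paragraph and the next were chosen after their values were seen. Slc4a1, the anion exchanger band 3 of the red-cell membrane, measured 16.3, 66.6 and 69.98 in WT, 5.73, 9.35 and 41.1 in tRNA-Phe-1-1-/-, 12.3, 8.93 and 8.12 in tRNA-Phe-2-1-/- and 24.8, 160 and 67.1 in tRNA-Phe-3-1-/- brains. Epb42, which encodes band 4.2, was at 31.4 in tRNA-Phe-3-1-/- replicate B, at 30.5 in WT replicate C and at 12.6 or less in the other 10 brains. Replicate B of tRNA-Phe-3-1-/-, the highest for these membrane genes, had 7785 Hbb-bs counts, the lowest of its group.

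Neutrophil genes were high in some of the same libraries. Their sum over 13 genes was 1106 in tRNA-Phe-3-1-/- replicate B, 736 in tRNA-Phe-3-1-/- replicate C and 538 in WT replicate C. In the other 9 brains it was between 161 and 471. Ngp, a granule protein of neutrophil precursors, measured 158, 64.2 and 57.6 in those libraries and 18.3 or less in the others. Replicate C of tRNA-Phe-3-1-/- and of WT, the libraries richest in globin, were thus among the highest for neutrophil genes too. The part of these other blood-cell transcripts in the globin differences was not tested. With WT replicate C and tRNA-Phe-3-1-/- replicate B left out together, the median of the 5 log2 differences was -0.87 in tRNA-Phe-1-1-/-, -0.55 in tRNA-Phe-2-1-/- and 0.74 in tRNA-Phe-3-1-/- brains, and 0 erythroid genes were called.

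**Figure D4:**
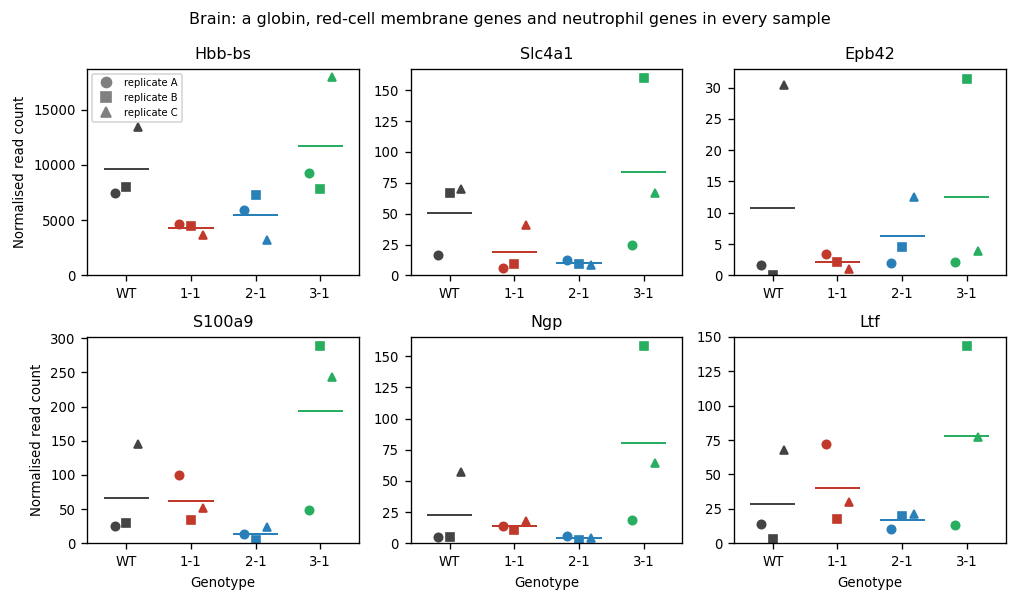
Normalised read counts (vertical axes, from 0) of Hbb-bs, the red-cell membrane genes Slc4a1 and Epb42 and 3 neutrophil genes in the 12 brain samples by genotype (horizontal axes, as in the plot of the 5 genes by sample). Symbols are replicates and bars are means of 3. Replicate B of tRNA-Phe-3-1-/- is highest for the 5 other genes but not for Hbb-bs, which is highest in replicate C of that line.

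In the liver 1 of 10 erythroid genes tested passed as lower in tRNA-Phe-1-1-/- mice, a share near the 9.08% of all genes called lower there. Slc4a1 was counted 42.0, 17.8 and 18.2 times in WT, 7.53, 5.29 and 2.05 times in tRNA-Phe-1-1-/-, 6.41, 16.3 and 9.22 times in tRNA-Phe-2-1-/- and 49.95, 57.4 and 16.1 times in tRNA-Phe-3-1-/- livers. It was lower in the 3 tRNA-Phe-1-1-/- livers than in each WT liver, with a log2 difference of -2.19 ± 0.58 and an adjusted p of 0.0252 (limma). The call was lost when WT replicate A or tRNA-Phe-1-1-/- replicate C was left out, and the gene has few counts. The list had a median difference of -0.38, compared with -0.01 for all genes, and 7 of 10 genes were lower. No erythroid gene passed in tRNA-Phe-2-1-/- or tRNA-Phe-3-1-/- livers (0 of 10 by limma, edgeR and DESeq2, with 2 and 1 at an unadjusted p under 0.05). Car1, the carbonic anhydrase of red cells, did not differ from WT past the threshold (-0.64 ± 0.43), but was lower in tRNA-Phe-1-1-/- than in tRNA-Phe-2-1-/- livers (-1.47 ± 0.43, adjusted p = 0.0395) and tRNA-Phe-3-1-/- livers (-1.44 ± 0.43, adjusted p = 0.0424).

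Of genes known to remain in reticulocytes, 11 were tested, most of which brain and liver cells transcribe as well. None passed in the brain (0 of 11 in each line by limma, with 0, 0 and 1 at an unadjusted p under 0.05 in the order of the lines). In tRNA-Phe-1-1-/- livers 1 of 11 fell (9.08% of all genes), Gypc, which encodes glycophorin C. It measured 221, 268 and 287 in WT and 130, 116 and 115 in tRNA-Phe-1-1-/- livers, a log2 difference of -1.09 ± 0.15 (adjusted p = 0.000862). As a description over 12 samples, Slc4a1 had a Pearson's r with the globins of 0.60 in both tissues, and of 0.04 (brain) and 0.06 (liver) about the genotype means.

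Other globins were set beside them, and none passed in any line against WT (limma, 0 of 2 tested for the brain and 0 of 1 for the liver, with 0 and 1 at an unadjusted p under 0.05 in tRNA-Phe-1-1-/- mice). Cygb (cytoglobin), a globin of connective tissue cells, differed from WT by 0.10 ± 0.15 in tRNA-Phe-1-1-/- brains and by 0.55 ± 0.18 in tRNA-Phe-1-1-/- livers (adjusted p = 0.057, limma). Ngb (neuroglobin), a globin of neurons, ranged from 66.6 to 736 normalised counts in the brain, with the highest value in tRNA-Phe-3-1-/- replicate C. Its difference in tRNA-Phe-1-1-/- brains was -0.12 ± 0.69.

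The other enzymes of haem synthesis were compared next. In the brain 0 of 8 passed in any line by limma (1, 0 and 3 at an unadjusted p under 0.05). In tRNA-Phe-1-1-/- livers 1 of 8 fell (9.08% of all genes), Alad, which joins 2 molecules of 5-aminolevulinate, from 3184, 3057 and 3181 in WT to 2609, 2100.2 and 2505 (log2 difference -0.39 ± 0.10, adjusted p = 0.0201). Alad was lower also against the other lines, with differences of -0.50 ± 0.10 in both (adjusted p = 0.00704 against tRNA-Phe-2-1-/- and 0.00721 against tRNA-Phe-3-1-/-). Alas1, the form of the enzyme used by other tissues, ranged from 925 to 30437 normalised counts over the 12 livers, with WT replicate C lowest and tRNA-Phe-3-1-/- replicate B highest. That range was far wider than the one of Alas2.

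Of 17 genes that clear haemoglobin and handle its iron, 2 rose and 2 fell in tRNA-Phe-1-1-/- livers. Of all genes, 17.3% were called there (8.27% higher and 9.08% lower), so the count is not read as a change of the group. Hp (haptoglobin), the plasma protein that binds free haemoglobin, measured 74549, 78443 and 61071 in WT and 239542, 280777 and 161971 in tRNA-Phe-1-1-/- livers. It rose by 1.64 ± 0.19 on the log2 scale (adjusted p = 0.000362). Cd163, the macrophage receptor for the haptoglobin-haemoglobin complex, measured 514, 249 and 370 in WT and 1495, 829.7 and 1235 in tRNA-Phe-1-1-/- livers, a rise of 1.67 ± 0.27 (adjusted p = 0.00195). Both were above all WT samples, opposite to the globins. Hp is also an acute-phase protein of the liver, and both genes are transcribed by resident cells of the organ. Hamp2, a relative of the iron hormone hepcidin, fell by 2.78 (SE 0.81, adjusted p = 0.0357, limma). Hamp, which encodes hepcidin itself, was tested too and was not called. Fth1, the heavy chain of the iron store ferritin, fell by 0.36 (SE 0.11, adjusted p = 0.0431, limma).

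In tRNA-Phe-1-1-/- brains 2 of 16 genes of that list fell, where 0.426% of all genes were called lower. Slc40a1 (ferroportin), the iron exporter, measured 498, 566 and 576 in WT and 327, 291 and 317 in tRNA-Phe-1-1-/- brains, a log2 difference of -0.81 ± 0.12 (adjusted p = 0.0175). Tfrc, the transferrin receptor that takes up iron, measured 4418, 5410.2 and 5133 in WT and 3579, 3547 and 2817 in tRNA-Phe-1-1-/- brains, a difference of -0.59 ± 0.12 (adjusted p = 0.047). Both genes are expressed by brain cells themselves. Over all genes, the 202 calls of this comparison fell to 5 without WT replicate C and to 9 without tRNA-Phe-1-1-/- replicate C. Brain calls thus depended on single samples. No gene of the list passed in the other lines against WT by limma, with 2 and 2 brain genes and 5 and 2 liver genes at an unadjusted p under 0.05 in the lines 2-1 and 3-1.

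Markers of the other blood cells and of vessels were set beside the globins. The platelet list did not pass in any line (0 of 5 genes tested for the brain, 0 of 4 for the liver, and at most 2 and 1 at an unadjusted p under 0.05), and its sum in the liver was 391.7 to 400.3 in WT, 425 to 849.9 in tRNA-Phe-1-1-/-, 353 to 418 in tRNA-Phe-2-1-/- and 318 to 446 in tRNA-Phe-3-1-/- samples. Its most abundant genes, Itgb3, Itga2b and Pf4, differed by 0.74 ± 0.31, -0.12 ± 0.24 and 0.41 ± 0.36 in tRNA-Phe-1-1-/- livers (log2, SE). Of 4 neutrophil genes tested in the liver, 3 rose in tRNA-Phe-1-1-/- (8.27% of all genes): S100a9 by 2.56 ± 0.65 (adjusted p = 0.0202), S100a8 by 2.52 ± 0.70 (adjusted p = 0.0293) and Csf3r by 1.27 ± 0.36 (adjusted p = 0.0315). Their summed level was 60.6 to 118 in WT and 223 to 525 in tRNA-Phe-1-1-/- livers, opposite to the globins. Of 7 lymphocyte genes, 4 fell (9.08% of all genes), among them the B-cell genes Ms4a1 (-2.57 ± 0.36, adjusted p = 0.00086), Cd79b (-2.29 ± 0.39, adjusted p = 0.00261) and Ighm. The lymphocyte sum was 513 to 607 in WT and 155 to 279 in tRNA-Phe-1-1-/- livers. It was 226 to 343 in tRNA-Phe-2-1-/- livers, also below all WT samples, and 378 to 559 in tRNA-Phe-3-1-/- livers. In the brain, 0 of 7 neutrophil and 0 of 2 lymphocyte genes passed in any line by limma, with at most 2 of each list at an unadjusted p under 0.05.

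Single genes of vessel endothelium also differed in tRNA-Phe-1-1-/- mice. In the brain 2 of 10 fell (0.426% of all genes), Cldn5 (claudin 5, of the tight junctions of brain vessels) by 0.54 (SE 0.076, adjusted p = 0.016) and Tek (an angiopoietin receptor) by 0.47 (SE 0.083, adjusted p = 0.0318). The limit given above for brain calls of Slc40a1 and Tfrc holds for these 2 genes too. In the liver 4 of 10 fell (9.08% of all genes), among them Cldn5 by 0.96 (SE 0.23, adjusted p = 0.0159), Kdr by 0.47 (SE 0.13, adjusted p = 0.027) and Emcn by 0.60 (SE 0.18, adjusted p = 0.0377), and Pecam1 rose by 0.42 (SE 0.12, adjusted p = 0.0357). The endothelial sum was 6760 to 7453 in WT and 6140 to 6736 in tRNA-Phe-1-1-/- brains, and 9303 to 10712 and 8521 to 9521 in the livers, so the groups overlapped in the liver and not in the brain. The part of vessel content in the globin differences was not tested.

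**Figure D5:**
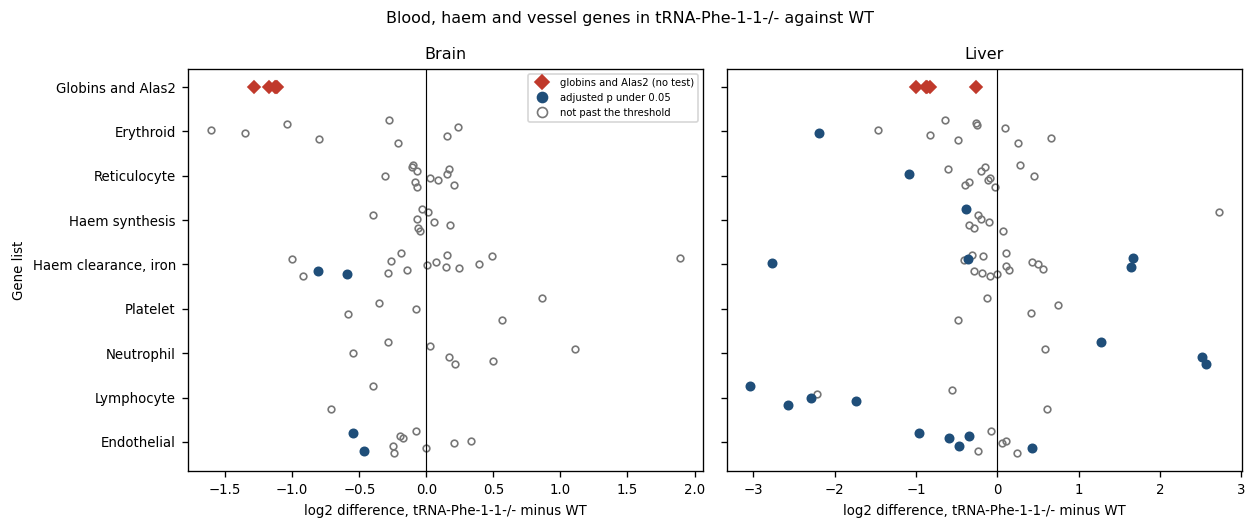
Log2 difference between tRNA-Phe-1-1-/- and WT (horizontal axes) in the brain and the liver. Diamonds are the globins and Alas2, for which no call is marked. Circles are the tested genes of 8 lists (vertical axis). Filled circles passed an adjusted p of 0.05 in limma and open circles did not. In the liver, filled neutrophil genes lie to the right and filled lymphocyte genes to the left of 0.

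The genes whose pattern was most like that of the 5 over the 12 samples were different in the tissues. In the brain, among 15152 genes whose mean reached 50 normalised counts, the 10 highest Pearson's r with the mean log2 deviation of the 5 genes included those of Idua (0.92), Gtf2a1 (0.91), Tent5c (0.89), Mblac2 (0.89), Zfp655 (0.89), Pcdh11x (0.88), Foxp4 (0.88), Ccdc59 (0.88) and Klhl6 (0.87). In the liver, among 12457 genes, they included those of Ndufa9 (0.95), Atp5mc3 (0.95), Sucla2 (0.95), Nudt16 (0.94), Zmym3 (0.94), Ndufs8 (0.93), Suclg1 (0.93), Bloc1s5 (0.93) and Atp5mf (0.93). None of these genes belongs to the lists of blood cells used here. Those lists do not hold every gene of blood cells, so whether blood cells express these genes was not tested. No gene of the brain came as close to the globins as the globins did to each other. About the genotype means these r were between 0.65 and 0.94 (brain) and between 0.63 and 0.84 (liver). With Spearman's rho in place of Pearson's r, 2 of the 10 brain genes and 4 of the 10 liver genes remained among the 10 highest.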

How the data were processed

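Total RNA of brain or liver pieces was sequenced by the authors (Illumina TruSeq libraries, NovaSeq platform). Per the study's methods and the submitters' processing notes, reads were trimmed with Trim Galore, aligned with STAR to GRCm38.p6 (GENCODE annotation, nuclear copies of mitochondrial sequence masked), quantified with Salmon in a strand-aware mode with bias corrections, summed to genes and normalised with DESeq2 in each tissue. The deposited signal is a table of normalised counts, that is, estimated reads divided by one size factor per sample, and the authors' tables of comparisons (mean, log2 fold change, error and s-value) were not used. Division of near-identical transcripts by Salmon affects the split between globin copies, and size factors assume that most genes are unchanged.

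In both tissues, 100% of the deposited values were whole multiples of one step per sample (within 0.1 of a read), which gave the depth. Linear models of log2(normalised count + 1) were made in limma (3.58.1, run in R 4.3.3, with a variance trend, 12 samples per tissue, 4 genotypes, genes with a mean of at least 10), with two-sided p-values adjusted by the Benjamini-Hochberg method over all genes of a comparison (threshold 0.05). This scale understates changes of low genes. The fit was tried on simulated counts with the same dispersion for all genes. That trial does not cover single samples that stand apart, as seen in the brain. As alternatives, other pseudocounts, filters, scalings and sample sets were tried, and edgeR 4.0.16 and DESeq2 1.42.0 on the recovered reads. Ratios were tested with exact permutation tests (SciPy 1.17.1).

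Symbols came from GENCODE vM39 through the Ensembl identifiers (93.2% matched), transcript lengths from its canonical transcripts, and positions and promoters from RefSeq for GRCm38.p6 (all 5 genes matched). The 5 genes, the gene lists and the tests were chosen with earlier results of these data known. From each list the text names at most the genes called against WT (up to 3 with the lowest adjusted p per direction and comparison), or the 3 most abundant where none was called, and the 10 genes most like the 5 in each tissue. Genes named outside this rule (Gata1, Klf1, Alas1, Car1, Hamp and the blood-cell genes of single brain libraries) were chosen after their values were seen. A listed gene was not analysed here, and some results that the rule names are not reported here. The study's methods describe separate mice for each group, but which library came from which mouse is not given in the sources used here, so p-values measure the spread between these samples.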

Additional observations from a re-analysis of the deposited data

How the results depend on the processing

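The medians of the 5 log2 differences from WT kept their direction under the 12 other settings that used all samples or the 6 compared. With single samples left out they ranged from -1.30 to -0.87 (tRNA-Phe-1-1-/-), -1.10 to -0.48 (tRNA-Phe-2-1-/-) and -0.11 to 0.50 (tRNA-Phe-3-1-/-) in the brain, and from -0.96 to -0.69, 0.064 (without tRNA-Phe-2-1-/- replicate B) to 0.66 (without its replicate A) and 0.33 to 0.64 in the liver. The count of erythroid genes called in tRNA-Phe-1-1-/- livers (1) was 0 with a filter at a mean of 50, which removes Slc4a1, 2 with DESeq2, and 0 to 1 with single samples left out. The other 5 counts were 0 under each setting. Over all genes, the count in tRNA-Phe-1-1-/- brains (202 genes) was 874 with DESeq2, 95 without a filter on low values, 103 without the variance trend and 5 to 163 with single samples left out. In tRNA-Phe-1-1-/- livers (2751 genes) it was 1472 to 2562 with single samples left out and 1828 in a fit of the 6 samples alone.

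What a replicate letter marks is not given in the sources used here, and whether letters pair the samples was not settled. Pairs with different letters were not compared with those of the same letter. The deviations of samples with the same letter from their group means had correlations between -0.16 and 0.49 in the brain and between -0.29 and 0.24 in the liver. With the letter as a replicate block, the medians in tRNA-Phe-1-1-/- mice were -1.13 in the brain and -0.87 in the liver, and 173 and 2347 genes were called over all genes.

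Leaving WT replicate C and tRNA-Phe-3-1-/- replicate B of the brain out together was chosen after seeing the data. Genes with few counts, such as those of erythroblasts, are limited by depth, and a difference in them was often not detectable.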
